A study of Mus musculus with 16 samples.

Results

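The 5 cytoskeletal, polarity and matrix genes (Prickle2, Adamts9, Magi1, Pard3 and Sorbs2) were examined through the H3K4me1 peak summits that lie around them in 3 loci of the mouse genome. The loci were chosen by their summit numbers in the same 2 lists that are described here, so their excess of 3T3 summits is a description and was given no test. In mm9 they run from 92.2 to 94.3 Mb on chromosome 6 (Prickle2, Adamts9 and Magi1, 2100 kb), from 129.5 to 130.2 Mb on chromosome 8 (Pard3, 700 kb) and from 46.59 to 46.93 Mb on chromosome 8 (Sorbs2, 340 kb). Together they held 281 of the 81860 summits listed for unstimulated 3T3 cells and 13 of the 79796 listed for unstimulated dendritic cells. All 294 summits were used, with no filter on score.

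The series profiled histone marks by ChIP-seq in 16 samples of 2 cell types. The 2 samples used here were unstimulated 3T3 fibroblasts, an established mouse line grown under standard conditions, and unstimulated dendritic cells grown from bone marrow progenitors. The progenitors had been infected with a retroviral hairpin against the coding sequence of JmjD2d, a histone demethylase gene, selected with histidinol, and differentiated in GM-CSF. Both libraries were precipitated with the H3K4me1 antibody clone CMA302. The remaining 14 samples, with stimulation, acetylation and input DNA, were not analysed here. Each cell type is 1 library, so the values below have no replicate error, and effects of the cell type and of the hairpin cannot be told apart. One label field of the 3T3 sample names dendritic cells, whereas its title, its description and its file header say 3T3, and it was taken as 3T3. Neither cell type could be checked against marker genes, since no gene positions of the mm9 build were used.

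H3K4me1 marks enhancers, poised or active, and the flanks of active promoters. Long genes often carry many such marked elements in their introns, and the set of elements is known to differ widely between cell types. Of the 5 genes, Prickle2 encodes a LIM-domain protein of the planar cell polarity pathway, which orients cells within a tissue sheet. Magi1 encodes a membrane-associated scaffold of tight and adherens junctions, and Pard3 the PAR3 scaffold, which with PAR6 and atypical protein kinase C sets apical-basal and front-rear polarity. Sorbs2 encodes an SH3-domain adaptor of actin stress fibres and cell-matrix contacts. Adamts9 differs from these in kind, as it encodes a secreted metalloprotease that cleaves proteoglycans of the extracellular matrix.

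The starts of the 5 genes are printed as landmarks of the loci. RefSeq sequence for GRCm38.p6 was at hand for all 5, with 12 annotated starts in all. Each line gives the 250 bases before the most upstream start in that table, 5′ to 3′ on the gene's strand, with CpG dinucleotides in capitals. These coordinates are of GRCm38.p6 and cannot be set beside the mm9 positions used elsewhere.
Prickle2 (chr6:92706185-92706434, minus strand): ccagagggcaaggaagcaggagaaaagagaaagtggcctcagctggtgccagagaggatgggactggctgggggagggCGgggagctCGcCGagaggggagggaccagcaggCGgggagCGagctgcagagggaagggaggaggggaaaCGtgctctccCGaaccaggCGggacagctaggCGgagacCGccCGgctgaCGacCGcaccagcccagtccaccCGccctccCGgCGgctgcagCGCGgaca
Adamts9 (chr6:92943535-92943784, minus strand): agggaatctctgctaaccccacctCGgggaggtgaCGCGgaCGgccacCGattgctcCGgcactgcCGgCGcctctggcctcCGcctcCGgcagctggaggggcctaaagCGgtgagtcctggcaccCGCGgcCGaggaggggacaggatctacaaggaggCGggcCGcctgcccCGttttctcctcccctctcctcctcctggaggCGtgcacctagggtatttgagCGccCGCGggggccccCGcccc
Magi1 (chr6:93913691-93913940, minus strand): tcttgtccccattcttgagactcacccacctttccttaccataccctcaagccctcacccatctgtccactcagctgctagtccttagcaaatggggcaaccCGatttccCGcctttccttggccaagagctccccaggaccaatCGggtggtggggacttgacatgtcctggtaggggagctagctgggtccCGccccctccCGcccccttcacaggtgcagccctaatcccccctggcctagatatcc
Pard3 (chr8:127063806-127064055, plus strand): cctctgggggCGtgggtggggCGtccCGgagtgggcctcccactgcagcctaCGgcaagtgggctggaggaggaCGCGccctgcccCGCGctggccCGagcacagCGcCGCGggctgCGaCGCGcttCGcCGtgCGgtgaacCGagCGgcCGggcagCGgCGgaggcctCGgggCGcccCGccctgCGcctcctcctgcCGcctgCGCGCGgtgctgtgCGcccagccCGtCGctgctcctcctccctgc
Sorbs2 (chr8:45507538-45507787, plus strand): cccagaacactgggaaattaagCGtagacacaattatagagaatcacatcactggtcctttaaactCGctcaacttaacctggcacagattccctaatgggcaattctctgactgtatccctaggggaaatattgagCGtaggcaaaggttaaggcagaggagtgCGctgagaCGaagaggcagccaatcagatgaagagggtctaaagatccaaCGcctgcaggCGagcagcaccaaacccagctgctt

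The windows of Pard3, Adamts9 and Prickle2 were rich in CpG, with 34, 22 and 18 dinucleotides, against a median of 6 over the 32851 windows of the RefSeq table. Those of Sorbs2 and Magi1, with 7 and 5, lay close to that median. The other 7 starts of these genes had between 3 and 7 CpG. Searched on both strands, the letters TGANTCA (the AP-1 motif) were found in 0 of the 12 windows and in 6.75% of all windows. GGAATG (the TEAD motif) was likewise found in 0 of the 12 windows, and in 12.6% of all. No summit could be placed relative to these starts.

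Across the 3 loci H3K4me1 summits were listed almost only for 3T3 cells. The Prickle2, Adamts9 and Magi1 locus held 167 3T3 summits (exact Poisson 95% interval 143 to 194) and 4 dendritic cell summits (1.09 to 10.2). Relative to the whole lists this was a 40.7-fold excess of 3T3 summits (exact binomial interval 15.6 to 151), or 5.35 on the log2 scale. The Pard3 locus held 70 3T3 summits (54.6 to 88.4) and 9 dendritic cell summits (4.12 to 17.1), a relative excess of 7.58-fold (3.77 to 17.3), or 2.92 on the log2 scale. At Sorbs2 there were 44 3T3 summits (32.0 to 59.1) and no dendritic cell summit. Set against a floor of 3 counts for the locus, which is the one-sided 95% limit of a count of 0, the excess there was at least 14.3-fold, or at least 3.84 on the log2 scale. The two-sided interval used for the other loci would start lower, at 11.1-fold. All these intervals cover counting error only.

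**Figure D1:**
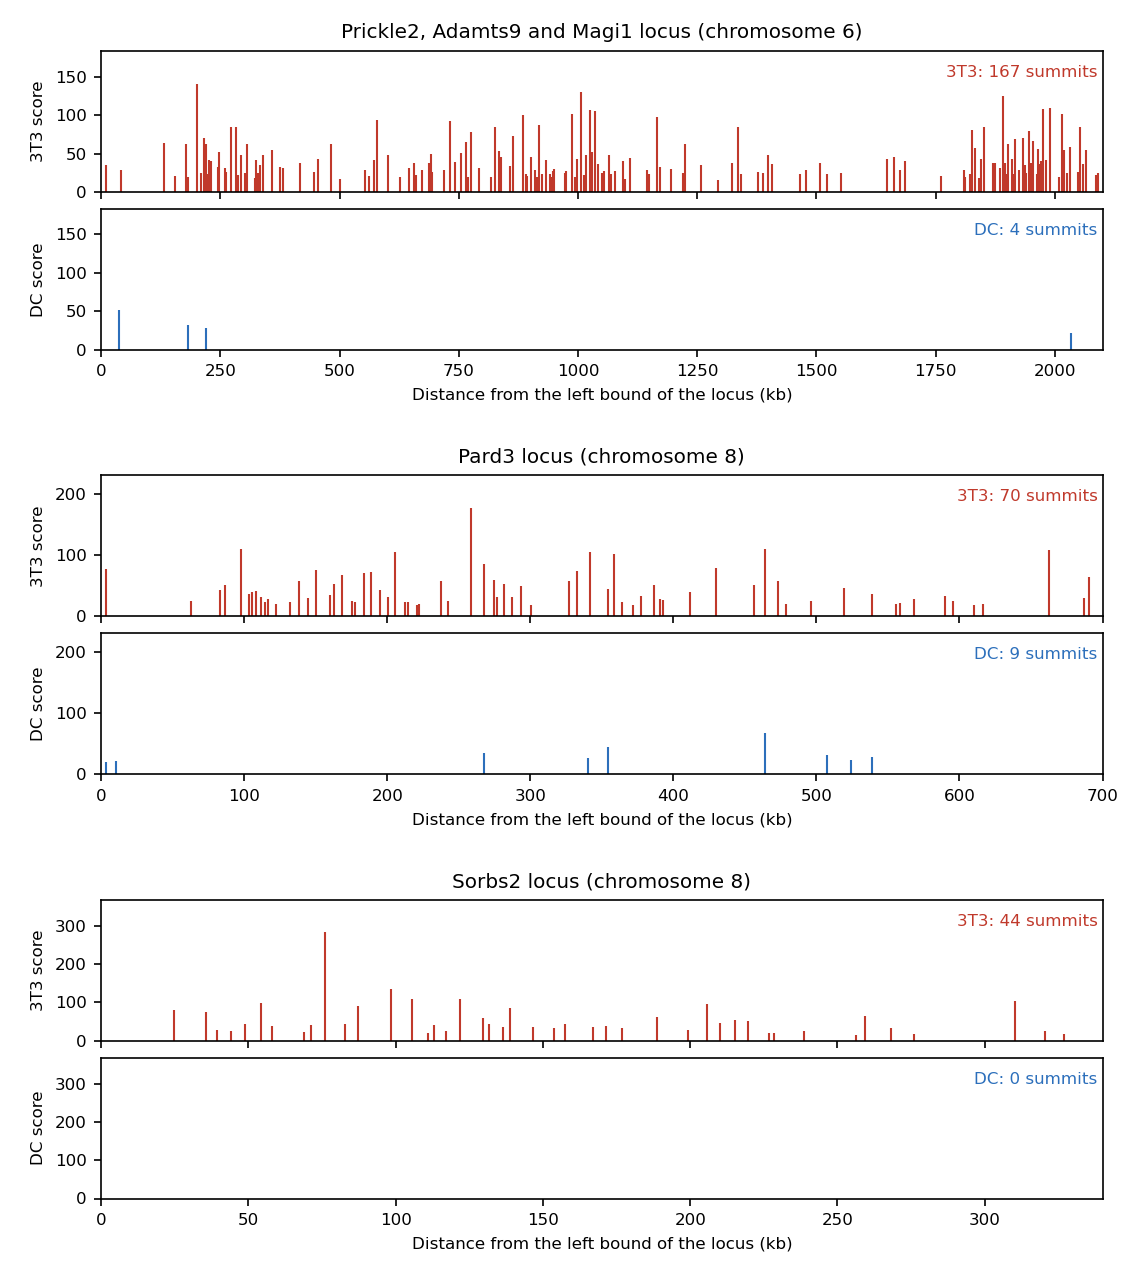
H3K4me1 summits of the 3 loci, with 3T3 cells (red) above dendritic cells (DC, blue). The horizontal axis is the distance from the left bound of the locus in kb, each line is 1 summit, and its height is the deposited score (no unit, not scaled between the lists). The 167, 70 and 44 3T3 summits stand over 4, 9 and 0 dendritic cell summits.

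Chromosome 8 as a whole was tilted the same way, which touches Pard3 and Sorbs2, and its part in their excess was not tested. Chromosome 8 held 6.83% of the 3T3 list and 4.62% of the dendritic cell list, and chromosome 6 held 6.25 and 5.49%. Relative to their own chromosomes the excess on the log2 scale was 5.16 at the chromosome 6 locus, 2.36 at Pard3 and, with the same floor of 3 counts, at least 3.27 at Sorbs2. Among equal numbers of top-scoring summits (39898 a list), 90 3T3 and 1 dendritic cell summits were left at the chromosome 6 locus (log2 excess 6.49, 3.98 to 11.8), and 38 and 2 at Pard3 (4.25, 2.30 to 7.34). With each bound moved 50 kb outward the chromosome 6 excess was 4.59 (3.52 to 5.93), from 173 and 7 summits. At Pard3 it was 2.55 (1.72 to 3.48), from 84 and 14, and the Sorbs2 counts were 59 and 1 (5.85, 3.31 to 11.2). The Sorbs2 value uses the observed count of 1 in place of the floor of 3 counts, so it does not show a larger excess than the main value.

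The loci were also set beside flanks of their own length, as a description, since the loci were chosen by these counts. In 3T3 cells the Pard3 locus held no more summits than the 700 kb on its left, with 70 in each, and the 700 kb on its right held 63. Dendritic cell summits numbered 9 in the Pard3 locus, against 62 and 39 in the same flanks. At the chromosome 6 locus the 167 3T3 summits stood beside 153 in the left and 90 in the right flank of 2100 kb. The 4 dendritic cell summits there stood beside 95 and 25. At Sorbs2 the 44 3T3 summits stood beside 26 and 25 in the flanks of 340 kb. The count of 0 for dendritic cells there stood beside 8 (3.45 to 15.8) in the left flank and 22 (13.8 to 33.3) in the right.

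**Figure D2:**
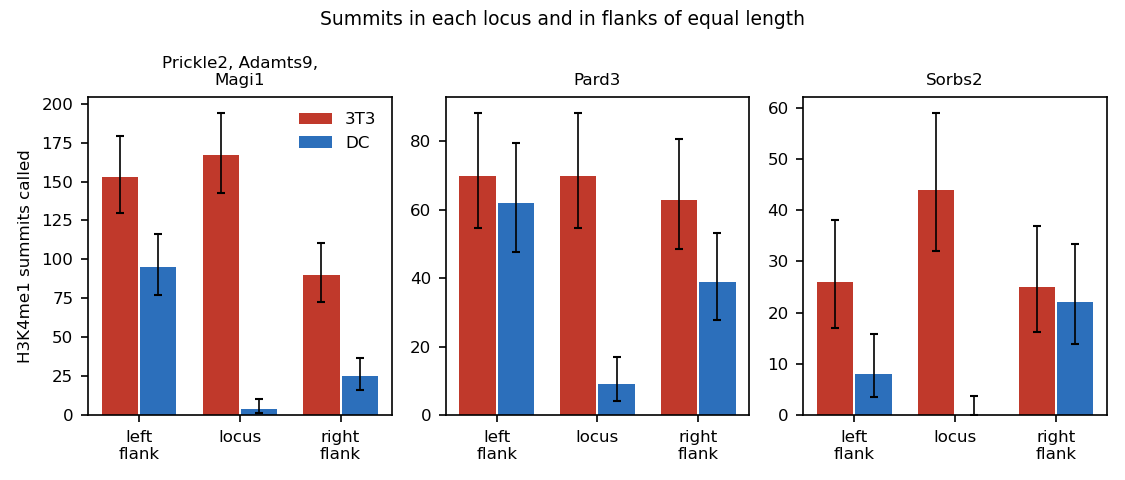
Number of H3K4me1 summits in each locus and in flanks of the locus's own length, for 3T3 cells (red) and dendritic cells (DC, blue). Bars are counts in 1 library and error bars exact Poisson 95% intervals. At Pard3 the 3T3 bars are level at 70, 70 and 63 while the dendritic cell bars read 62, 9 and 39.

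The share of 3T3 summits near a dendritic cell summit was also set beside the flanks. This share is limited by the number of dendritic cell summits, by which the loci were chosen. It is therefore a description, and no lower sharing of single sites is read from it. Within 1000 bp of a dendritic cell summit lay 7.14% of the 3T3 summits of the Pard3 locus, against 41.4% in its left and 20.6% in its right flank. The values for the chromosome 6 locus were 1.20%, against 23.5 and 7.78%, and for Sorbs2 0%, against 11.5 and 28.0%. For Sorbs2 a count of 0 among 44 allows a share of up to 6.82% by the floor of 3 counts, and up to 8.04% by the two-sided Clopper-Pearson interval.

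Seen against tiles of the same length over the genome, many 3T3 summits usually came with many dendritic cell summits. Of 1202 tiles of 2100 kb with any summit, 50 (4.16%) held at least 167 3T3 summits. These 50 tiles had a median of 156 dendritic cell summits and a minimum of 10, so 0 of them had as few as the 4 of the chromosome 6 locus. Of 3194 tiles of 700 kb, 86 (2.69%) held at least 70 3T3 summits, with a median of 61 dendritic cell summits, and 5 of the 86 had 9 or fewer. Of 5980 tiles of 340 kb, 44 (0.736%) held at least 44 3T3 summits, with a median of 35.5 dendritic cell summits, and 2 of the 44 had none. The tiles lay on a fixed grid, whereas the loci were chosen by these counts. How rare such loci are therefore cannot be read from the tiles.

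In bins of 100 kb the loci took in 31 bins, and 22 of them held no dendritic cell summit, while each held at least 1 3T3 summit. The bins averaged 8.97 3T3 and 0.419 dendritic cell summits, against 4.85 and 4.72 over all 16889 bins with any summit. Bins that held 10 or more 3T3 summits but none of dendritic cells numbered 8 of 31, which were 5 of 21 on chromosome 6, 1 of 7 at Pard3 and 2 of 3 at Sorbs2. The background of such bins was 1.49%. The opposite kind, with 10 or more dendritic cell summits but none of 3T3, made up 0.486% of all bins and 0 of the 31. Since the loci were chosen by such counts, nothing is read from these shares.

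**Figure D3:**
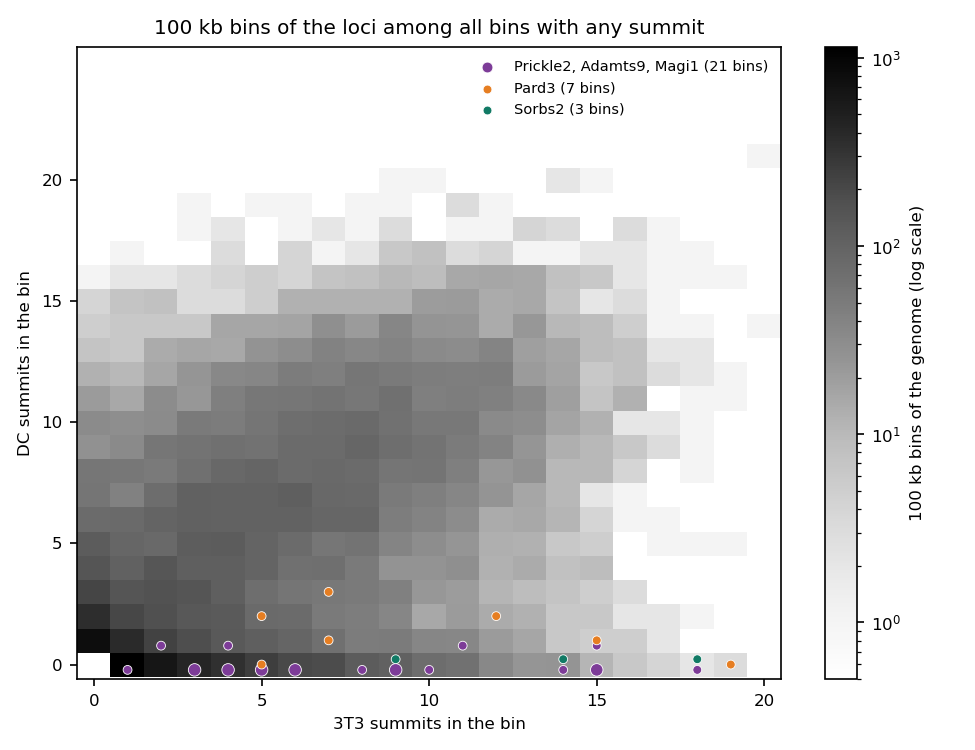
Each square is a pair of counts (3T3 summits across, dendritic cell summits up) and its shade the number of 100 kb bins of the genome with that pair, on a log scale. Coloured points are the 31 bins of the loci, larger where several coincide and moved slightly up or down to keep loci apart. They lie along the bottom edge, with at most 3 dendritic cell summits and up to 19 3T3 summits.

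The chromosome 6 locus was not evenly filled. On the reference assembly its 3 protein-coding genes follow each other as Prickle2, Adamts9 and Magi1, between Trh, the gene of thyrotropin-releasing hormone, and Slc25a26, a mitochondrial carrier gene. When 3T3 summits at most 20 kb apart were joined, 7 stretches of 5 or more summits held 118 of the 167. They fell into 3 parts of the locus, at its left, in its middle and at its right end. The left part was 1 stretch of 27 summits from 92378071 to 92581033 (203 kb), with a median score of 40 and a highest score of 141. The middle part was 4 stretches between 92827413 and 93308506, with 8, 8, 13 and 21 summits. The right part was a stretch of 8 followed by one of 33 from 94071208 to 94264920 (194 kb). The stretch of 33 had 16.5 spacings between neighbouring summits per 100 kb. Which stretch belongs to which gene was not assigned, as gene positions of the mm9 build were not used.

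Between the middle and right parts lay sparser ground. The 4 bins from 93600001 to 94000000 held 3, 3, 4 and 1 3T3 summits, and the longest interval without a 3T3 summit, 94995 bp, ran from 93752326 to 93847321. The densest bin of the locus, from 94100001 to 94200000, held 18, with a median score of 42. Summits inside the 7 stretches had a median score of 38 (n = 118), against 32 outside them (n = 49). Scores in the top decile of the 3T3 list (75 or more) were reached by 19 summits inside and 4 outside.

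The 4 dendritic cell summits of the chromosome 6 locus lay near its ends. They stood at 92237008 (score 52), 92381997 (score 32), 92419037 (score 29) and 94233948 (score 22). From 92419037 to 94233948 the dendritic cell list was empty for 1815 kb. That interval held 152 3T3 summits, the second most among the 79774 intervals between neighbouring dendritic cell summits, whereas by length alone it ranked 167. In the dendritic cell list the 4 scores were at percentiles between 13.7 and 72.6. Of the 4, 2 had a 3T3 summit within 1000 bp. At 92381997 the 3T3 summit was 21 bp away and scored 20, and at 92419037 it was 230 bp away and scored 63. Relative to the median ratio of all 24378 mutually nearest pairs, these were 3T3-to-dendritic-cell ratios of 0.680 and 2.36, one below and one above that median.

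Pard3, the polarity scaffold, had its 3T3 summits crowded towards the left of the locus. The bin from 129600001 to 129700000 held 19, with a median score of 36 and no dendritic cell summit. The bins after it held 15, 12, 7, 7 and 5 3T3 summits, with 1, 2, 1, 3 and 0 dendritic cell summits. The first bin of the locus held 5 3T3 and 2 dendritic cell summits. Just outside the left bound, at 129497336, the dendritic cell list had a summit scoring 71, and the first inside, at 129503144, scored 20. The 3T3 scores went the other way, with 15 at 129499701 outside and 77 at 129503191 inside. A stretch of 38 3T3 summits from 129583115 to 129800212 (217 kb) had a single dendritic cell summit within it. Close neighbours, at most 2 kb apart, made up 6 of 69 spacings between 3T3 summits at Pard3 (8.70%), against 2.41% at the chromosome 6 locus, 2.33% at Sorbs2 and 2.95% in the whole list.

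Pard3 held 9 of the 13 dendritic cell summits of the loci and, by count, the most sites shared by both cell types. As a share of the 3T3 summits, the shared ones were 7.14% at Pard3, against 29.8% in the whole list. The 9 dendritic cell summits limit how many 3T3 summits can be shared, so that share is a description only. Of the 9 dendritic cell summits at Pard3, 5 had a 3T3 summit within 1000 bp, at distances of 47, 31, 286, 50 and 173 bp. At the chromosome 6 locus this was so for 2 of 4. The scores that follow are as deposited and unscaled. At 129503144 the 3T3 summit scored 77, and the dendritic cell summit scored 20. At 129767664 the scores were 86 in 3T3 and 35 in dendritic cells, at 129854542 they were 44 and 45, at 129964124 they were 110 and 68, and at 130039079 they were 37 and 28. Relative to the median of all pairs, the 3T3 score was the higher one in 5 of 5, by 0.82 on the log2 scale at the median pair. The relative ratios ran from 1.06 at 129854542 to 4.19 at 129503144. Pairs on chromosome 8 as a whole had a median of 0.47 (n = 1400) on the same scale, and its part in the Pard3 value was not tested. The pair at 129964124 holds the highest dendritic cell summit of the 3 loci and one of the highest 3T3 summits of Pard3. The other 4 dendritic cell summits, with scores of 22, 27, 32 and 24, lay between 1330 and 10887 bp from the nearest 3T3 summit.

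In all 3 loci 274 of 281 3T3 summits (97.5%) had no dendritic cell summit within 1000 bp, beside a background of 70.2% in the whole list. The other way round, 6 of 13 dendritic cell summits had no 3T3 summit within that distance, beside 69.4%. The first share follows from how the loci were chosen and the second rests on 13 summits. The highest dendritic cell score in the loci, 68, was below the top decile of that list, which starts at 79.

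Sorbs2, the actin adaptor gene, had the most 3T3 summits per 100 kb of its interval. Its 44 3T3 summits amounted to 12.9 per 100 kb, against 10.0 at Pard3 and 7.95 at the chromosome 6 locus. This order depends on where the bounds were set. In the stretch of each locus with the most summits, spacings between neighbours numbered 15.9 per 100 kb at Sorbs2, 17.0 at Pard3 and 16.5 on chromosome 6. A stretch has 1 spacing fewer than summits, so these values lie slightly below its summits per 100 kb. The fullest 100 kb bin held 18 at Sorbs2, 19 at Pard3 and 18 on chromosome 6. A stretch of 41 summits ran from 46614727 to 46865892 (251 kb) with none of the dendritic cell list, and 38 stretches of the 3T3 list held more. The nearest dendritic cell summits lay outside the locus at 46524598 (score 19) and 46960604 (score 30). The 436 kb between them held 57 3T3 summits, which ranks 24 among the dendritic cell intervals. On the reference assembly the neighbours of Sorbs2 are Tlr3, which encodes a receptor for double-stranded RNA, and Pdlim3, which encodes an actin-associated LIM protein. Of the 5 stretches with 20 or more 3T3 summits in the 3 loci, 2 held no dendritic cell summit, the one at Sorbs2 and one of 21 summits on chromosome 6. In the whole list this was so for 28 of 479 such stretches (5.85%). The joining distance sets these numbers, since at 10 kb in place of 20 kb only 1 stretch of 20 or more was left in the loci. As the loci were chosen by summit numbers, nothing is read from the 2 of 5 beside the whole list.

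The heights of the 3T3 summits were set beside those of the list. The loci were chosen by summit numbers and not by height, so departures in height and in number are not compared. The median score was 36 at the chromosome 6 locus (25th to 75th percentile 25 to 53.5), 36.5 at Pard3 (25 to 58) and 40.5 at Sorbs2 (26.8 to 66.3). The whole 3T3 list had a median of 33 (24 to 50). Chromosome 6 as a whole had a median of 34 and chromosome 8 one of 38, so the Pard3 median lay below that of its own chromosome and the Sorbs2 median above it. Summits in the top decile of the list made up 13.8% at the chromosome 6 locus, 15.7% at Pard3 and 25% at Sorbs2. The share was 10.1% in the whole list, 13.6% on chromosome 6 and 18.8% on chromosome 8.

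The 3 highest 3T3 summits of each locus are given with their place in the whole list. At Sorbs2 the summit at 46665946 scored 283, and 14 summits of the whole 3T3 list scored more. Its nearest 3T3 neighbour, 4667 bp away, scored 40, and its nearest dendritic cell summit was 141348 bp away. The next at Sorbs2 were those at 46688226 (136) and 46695376 (109), which 966 and 2440 summits exceeded. At Pard3 the highest, at 129758379, scored 178, and 240 summits of the whole 3T3 list scored more. Its nearest dendritic cell summit, 9285 bp off, scored 35. It was followed by 129597382 and 129964174 with 110 each, which 2363 summits exceeded. At the chromosome 6 locus the 3 highest fell 1 in each of the dense parts, at 92401286 (141), 93206894 (130) and 94091875 (125), and 829, 1188 and 1427 summits of the list scored more. Their nearest dendritic cell summits were 17751, 787857 and 142073 bp away. Whether reads piled up at collapsed repeats add to any of these heights was not tested, as input DNA was not analysed.

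Distances to the other list differed between the 3 loci. They are limited by the length of the intervals without a dendritic cell summit, 1815 kb on chromosome 6 and 436 kb at Sorbs2. As the loci were chosen by such counts, the distances are a description only. From a 3T3 summit of the chromosome 6 locus the nearest dendritic cell summit was a median of 353 kb away, and from one at Sorbs2 152 kb. At Pard3 the median was 48.9 kb, and over the whole 3T3 list it was 3.58 kb. More than 20 kb from the dendritic cell list lay 90.4% of the 3T3 summits at the chromosome 6 locus, 67.1% at Pard3 and all 44 at Sorbs2, against 25.02% of the whole list. Neighbouring 3T3 summits were a median of 7.52 kb apart at the chromosome 6 locus, 6.43 kb at Pard3 and 5.44 kb at Sorbs2, against 9.17 kb in the list.

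**Figure D4:**
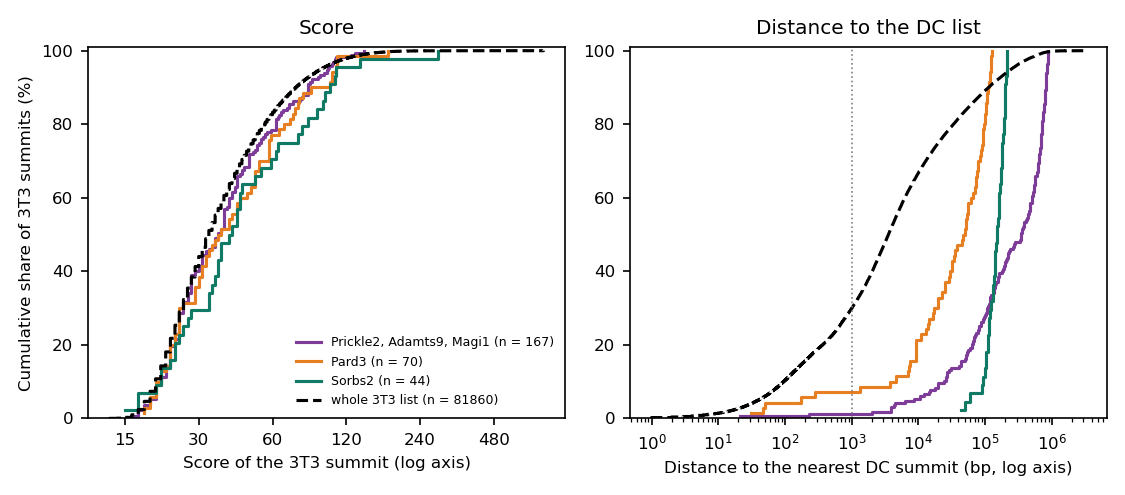
Cumulative share of 3T3 summits by score (left, log axis) and by distance to the nearest dendritic cell (DC) summit (right, bp, log axis), for the 3 loci and, dashed, the whole 3T3 list. The dotted line marks the 1000 bp within which summits were called shared. The score curves have medians of 36, 36.5 and 40.5 against 33 in the list. The distance curves lie far to the right of that of the list, and the loci were chosen by such counts.

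The bounds of the loci are round positions, and the summits on either side of them were these. On chromosome 6 the last 3T3 summit before the locus was at 92190343 (score 32) and the first inside at 92210010 (35), and the last inside was at 94289602 (25) and the next at 94326792 (36). Dendritic cell summits next to that locus stood at 92180083 (18) and 94433117 (47). At Pard3 3T3 summits flanked the bounds at 129499701 (15) and 130201140 (21), and at Sorbs2 at 46589548 (30) and 46930160 (27). The stretches at the right ends of Pard3 and Sorbs2 ran on past the bounds, to 130244583 and 47020070.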

How the data were processed

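H3K4me1 ChIP-seq of 2 unstimulated libraries was analysed, 1 of 3T3 cells and 1 of dendritic cells. Per the labels' protocols, DNA of formaldehyde-fixed nuclei was sheared to about 300 bp, amplified for 18 cycles and read as single reads of 36 bp. The submitters' processing notes name Bowtie, MACS 1.4 and the build mm9. Per the file headers, summits were called at a p of 1e-04 and a shift of 150 bp, without a model of fragment size and without a local background rate. Whether input DNA was used in calling is not stated. For each summit the authors deposited a position and a score, taken here as the signal height of the peak, made by MACS per the file headers, which do not name it. Scores began at 13, no scaling between lists is recorded, and the depth is unknown.

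Positions were counted in the 3 loci, in equal flanks, in tiles and in bins of 100 kb (31 bins with their centre in a locus). Exact Poisson and Clopper-Pearson 95% intervals cover counting error only. A summit was shared when the other list had one within 1000 bp. Named summits were the 3 highest of 3T3 and all of dendritic cells (for Pard3 the rule was the 3 highest and the shared ones, and the others were added after their values were seen). The loci, lists and rules were chosen with earlier results of these data known. Stretches, tiles and the median relative to the chromosome were added after seeing the data. Scores had been planned for comparison within each list only, and the score ratios of pairs went beyond that plan. The computations were checked on planted lists. Marker genes and other polarity genes had been planned for an mm9 annotation and were not analysed here. Analysis used Python 3.11.15 with pandas 2.3.3, scipy 1.17.1 and numpy 2.4.6, and figures matplotlib 3.10.9.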

Additional observations from a re-analysis of the deposited data

How the results depend on the processing

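Of 47 alternative values, 40 stayed within the counting interval, the interval of the median or 1.5 times the main count, and 7 moved. None of the log2 excesses changed sign. The shares, medians, spacings and counts cannot be negative, so for them a change of sign was not possible. When each list was limited to its 39898 top-scoring summits, the log2 excess was 4.25 at Pard3 and at least 3.27 at Sorbs2, the shared share at the chromosome 6 locus was 0%, and 4 of the 31 bins, in place of 8, were one-sided. The main values were 2.92 at Pard3 and at least 3.84 at Sorbs2, so the Pard3 value rose and the Sorbs2 bound fell. With fewer summits in play, fewer can be shared and fewer bins can reach 10 3T3 summits. The Sorbs2 bound falls by construction too, since its floor of 3 counts stays. Relative to chromosome 8, the Sorbs2 excess was at least 3.27, with the dendritic cell count of 0 set at the floor of 3 counts as in the other values for Sorbs2. At 5 or more 3T3 summits, 17 bins were one-sided. Joining summits at most 10 kb apart, a setting added after seeing the data, left 1 stretch of 20 or more, in place of 5. The shared distances of 250, 500 and 2000 bp moved no value out of its interval. Merging summits within 1000 bp left the counts of the loci unchanged, at 167 and 4, 70 and 9, and 44 and 0. Its values, which are among the 40, therefore say nothing about robustness. No paired analysis was possible because each cell type has 1 library. For the same reason no library could be left out. As the depth is unknown, an empty stretch says only that no summit was called there.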
